A study of Mus musculus with 9 samples.

Results

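The aquaporins were described in ovaries of juvenile Kunming mice. The 10 members, Aqp1, Aqp2, Aqp3, Aqp4, Aqp5, Aqp7, Aqp8, Aqp9, Aqp11 and Aqp12, were chosen by gene name from tables of 52025 genes, and each name matched 1 row. Ovaries were collected on postnatal day (PD) 14, 15 and 16, the days chosen to study how the fluid-filled antrum of the follicle arises, and each day gave 3 RNA-Seq libraries. The animals carried no stated allele or treatment, so age was the only difference named between the groups, and the study describes the sequenced material as independent ovaries. Values are FPKM, in which the fragments of a gene are divided by its length and by the library's total, so that levels can be set side by side between genes.

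The labels name ovary as the tissue and granulosa cells as the source, whereas the study's methods describe whole ovaries. The markers held more than granulosa cells. Gdf9, which the oocyte secretes, lay at 206 to 274 FPKM, Cyp17a1 of theca cells at 19.9 to 46.5 FPKM and Cdh5 of endothelial cells at 23.1 to 28.5 FPKM, beside Foxl2 of granulosa cells at 128 to 183 FPKM, and the libraries were described as ovaries. In such bulk libraries, fewer cells of a type and less RNA per cell cannot be told apart. The depth derived from the tables was 20.3 to 28.7 M fragments in a library (median 24.1 M).

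Aquaporins are membrane channels through which water moves down an osmotic gradient set by solute transport. The classical members Aqp1, Aqp2, Aqp4, Aqp5 and Aqp8 conduct water, the aquaglyceroporins Aqp3, Aqp7 and Aqp9 also pass glycerol, and Aqp11 and Aqp12 are distant members found on internal membranes. In the ovary they are studied because the antrum of a follicle is a cavity filled with fluid, while Aqp1 is also abundant in red blood cells and in the lining of small vessels, Aqp2 is the vasopressin-regulated channel of the kidney collecting duct, and Aqp12 is best known from acinar cells of the pancreas.

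The pore of an aquaporin is lined by a pair of short loops, each of which carries the box asparagine-proline-alanine (NPA). The windows below are coding sequence from the GENCODE M21 transcripts, 27 bases each, 5′ to 3′, with the 9 bases of the first box in capitals and 9 bases on either side. They are shown because the classical members that entered the test differ in this box from the distant members Aqp11 and Aqp12. The box starts at codon 76 of 269 in Aqp1, at codon 68 of 271 in Aqp2, at codon 69 of 265 in Aqp5, at codon 99 of 271 in Aqp11 and at codon 93 of 290 in Aqp12.
Aqp1: gctcacctcAACCCTGCGgtcacactg
Aqp2: gcccacatcAACCCTGCTgtgactgtg
Aqp5: ggccacatcAATCCGGCCattactctg
Aqp11: acagctagcAACCCGTGCggcgtgatg
Aqp12: gcctctgccAACCCCACCgtggccctg
The first box read NPA in Aqp1, Aqp2 and Aqp5, and also in Aqp3, Aqp8 and Aqp9. It read NPC in Aqp11, with cysteine in the last place, and NPT in Aqp12, with threonine there. The second box read NPA in all of these members. In Aqp3, whose second NPA starts at codon 215, the letters NPV were also found between the boxes, at codon 184. The search was for the letters NP followed by A, C, S, T or V, and a box of another form could not be found by it. In the Aqp7 transcript, 1 box was found by these letters, and it read NPS. This does not show that Aqp7 lacks a first box.

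The second boxes are shown for Aqp1, the most abundant member, and for Aqp11 and Aqp12, which differ from it in the first box. The only box that this search found in Aqp7 is set beside them for its place in the sequence. The box shown starts at codon 192 in Aqp1, at codon 211 of 303 in Aqp7, at codon 216 in Aqp11 and at codon 212 in Aqp12.
Aqp1: tgcggtatcAACCCTGCCcggtcattt
Aqp7: tatgcaatcAACCCATCCcgtgacctg
Aqp11: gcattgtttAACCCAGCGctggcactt
Aqp12: gccttcttcAATCCTGCCctggctgcc
Aqp1, Aqp11 and Aqp12 keep NPA here, and the box of Aqp7 reads NPS.

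The levels of the aquaporins were dominated by a single gene. Over the 9 libraries, Aqp1 had a mean of 13.2 FPKM, above 90.5% of all genes in the tables. Aqp12 followed at 2.0 FPKM, Aqp5 at 1.42 FPKM and Aqp2 at 1.22 FPKM. Aqp9 had a mean of 0.483 FPKM, Aqp8 of 0.473 FPKM and Aqp11 of 0.305 FPKM. The place of Aqp8 rested on PD16 replicate 3, without which its mean over the other 8 libraries was 0.280 FPKM, below the 0.301 FPKM of Aqp11. Aqp7 (0.0616 FPKM), Aqp3 (0.0382 FPKM) and Aqp4 (0.0351 FPKM) were close to the limit of detection, and without PD14 replicate 1 the mean of Aqp3 was 0.0291 FPKM, below the 0.0345 FPKM of Aqp4. Neighbours in this order had separate ranges over the libraries in 2 places only, between Aqp1 and Aqp12 and between Aqp11 and Aqp7, and all other neighbours overlapped. Aqp3 rested on 0 to 5 fragments per library and Aqp7 on 0 to 8.

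**Figure D1:**
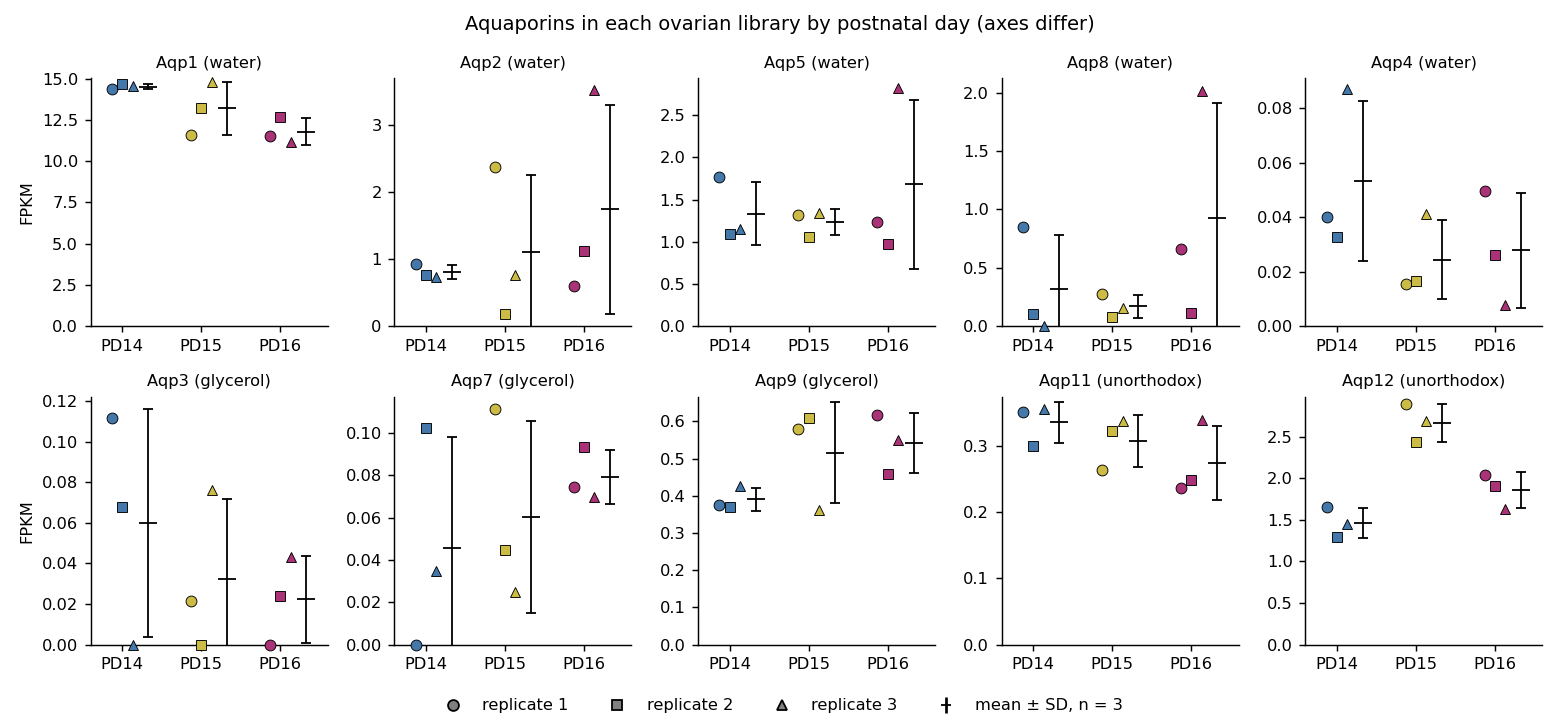
FPKM of the 10 aquaporins in each of the 9 libraries by postnatal day, with the mean and SD of each day (n = 3) beside the points and the bars cut off at 0. Each panel has its own axis. Aqp12 has its 3 PD15 libraries above all others, between 2.43 and 2.89 FPKM, and Aqp2, Aqp5 and Aqp8 each have PD16 replicate 3 as the highest point.

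Between the days, 1 aquaporin passed the test. Aqp12 rose from 1.46 ± 0.179 FPKM at PD14 to 2.67 ± 0.228 FPKM at PD15 (mean ± SD, n = 3). Aqp1 had a mean of 14.5 FPKM at PD14 and 11.8 FPKM at PD16, a difference that did not pass the adjustment, and Aqp2 and Aqp5 varied more within days than between them. For the test with limma on log2(FPKM + 1), genes needed a mean above 1 FPKM on at least 1 day. Aqp1, Aqp2, Aqp5 and Aqp12 passed this filter, Aqp2 only through its means at PD15 and PD16, and the other 6 members did not. At an adjusted p under 0.05, 1 of the 4 tested aquaporins was called between PD14 and PD15, where 0.678% of all 15495 genes tested were called. Between PD14 and PD16, limma called 0 of 4 (2 at an unadjusted p under 0.05, Aqp1 and Aqp12), against 4.25% of all genes (22.8% at an unadjusted p under 0.05). Between PD15 and PD16, limma called 0 of 4 (1 at an unadjusted p under 0.05, Aqp12), against 0.729% of all genes (14.1% at an unadjusted p under 0.05). In the F test among the 3 days, 1 of 4 was called, against 3.03% of all genes. The calls of Aqp12 in this test and from PD14 to PD15 were both lost when any 1 library other than PD16 replicate 3 was left out. With 4 genes tested, a single call is a statement about Aqp12 and not about the family.

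Of the 10 members, 1 was higher in every PD15 library than in every PD14 library (Aqp12), where the libraries of these days did not overlap for 13.9% of the 33957 genes above 0 in any library. Between PD14 and PD16, the libraries did not overlap for 2 members, Aqp9 higher and Aqp1 lower at PD16, against 17.6% of all genes. Between PD15 and PD16, they did not overlap for 1 member, Aqp12 lower at PD16, against 13.5%. These shares of 1 to 2 in 10 are near the background.

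Aqp1, the constitutively open water channel, lies on chr6:55336432-55348555 of GRCm38 (+ strand). It was at 14.4, 14.7 and 14.5 FPKM in the PD14 libraries, at 11.6, 13.2 and 14.8 FPKM in the PD15 libraries, and at 11.5, 12.7 and 11.2 FPKM in the PD16 libraries. All PD16 libraries were below all PD14 libraries, whereas those of PD15 spanned both. The mean at PD16 was 0.812 times that at PD14, with a change of -0.28 in log2(FPKM + 1) (SE 0.083, 95% interval -0.47 to -0.09, unadjusted p = 0.00758, adjusted p = 0.0879 by limma). The change from PD14 to PD15 was -0.13 (adjusted p = 0.487) and that from PD15 to PD16 was -0.15 (adjusted p = 0.467). The exact permutation test of the 3 days gave p = 0.0679.

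Endothelial cells and red blood cells are known to carry Aqp1, and the part of their numbers in its values was not tested. The summed FPKM of 8 endothelial markers, of which none was at 0, ranged from 79.9 to 86.5 at PD14, from 74.7 to 78.8 at PD15 and from 73.1 to 76.0 at PD16, so that its mean at PD16 was 0.890 times that at PD14. The sum of 6 red blood cell markers ran from 105 to 147 at PD14, from 46.4 to 63.2 at PD15 and from 60.8 to 116 at PD16. In that list, the globins made up the level, while Slc4a1 reached no more than 0.0501 FPKM, and the globin Hba-a1 fell from PD14 to PD15 (-1.35, adjusted p = 0.0381 by limma, a call lost in 9 of 19 alternatives). The red cell sum was lowest at PD15, when Aqp1 was at 13.2 ± 1.61 FPKM. Relative to the endothelial sum, Aqp1 stood at 0.173 ± 0.00611 at PD14, 0.171 ± 0.0164 at PD15 and 0.158 ± 0.0141 at PD16, and the ranges of PD14 and PD16 overlapped.

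**Figure D2:**
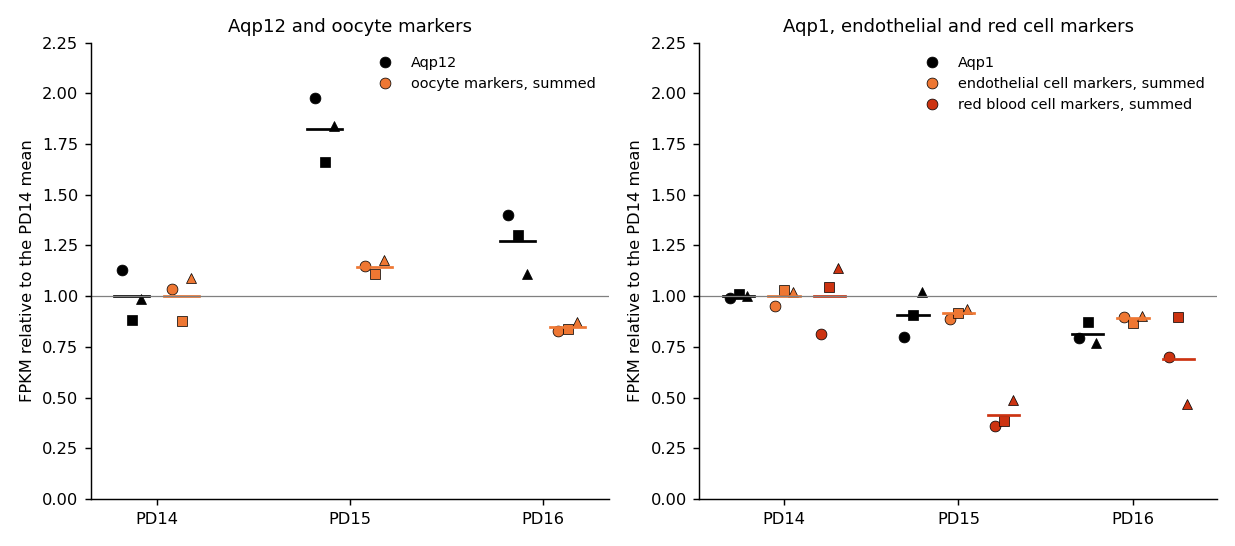
Aqp12 beside the summed oocyte markers, and Aqp1 beside the summed endothelial and red blood cell markers, as FPKM relative to the PD14 mean in each library (circle, square and triangle for replicates 1, 2 and 3, line for the mean of the day). The mean of Aqp12 reaches 1.83 at PD15 where the oocyte sum reaches 1.14, and the mean of Aqp1 stands at 0.812 at PD16 where the endothelial sum stands at 0.890.

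Aqp2, the channel that vasopressin and cyclic AMP bring to the cell surface, lies on chr15:99579055-99584547 (+ strand). The PD14 libraries were close to each other at 0.922, 0.760 and 0.728 FPKM. Those of PD15 were at 2.39, 0.178 and 0.762 FPKM, and those of PD16 at 0.593, 1.12 and 3.53 FPKM. On each later day, 1 library was far above the others, and the ranges of all 3 days overlapped. The spread between libraries of a day was 0.63 in log2(FPKM + 1), wider than in 98.9% of the genes tested. At PD15, about 86 fragments stood behind replicate 1 (exact Poisson 95% interval 68.8 to 106) and 6 behind replicate 2 (2.20 to 13.1), and at PD16 about 127 behind replicate 3 (106 to 151) and 20 behind replicate 1 (12.2 to 30.9). Such intervals cover counting error only.

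The day means of Aqp2 were 0.803 ± 0.104, 1.11 ± 1.14 and 1.75 ± 1.56 FPKM. The PD16 mean was 2.17 times that at PD14, but the change in log2(FPKM + 1) was 0.46 with a 95% interval of -0.49 to 1.42 (adjusted p = 0.554 by limma). From PD14 to PD15, it was 0.09 (-0.86 to 1.04, adjusted p = 0.945), and from PD15 to PD16 0.37 (-0.58 to 1.33, adjusted p = 0.759). The exact permutation test of the 3 days gave p = 0.661. All 3 intervals hold both a rise and a fall. Without PD16 replicate 3, the PD16 mean was 0.856 FPKM and the change from PD14 was 0.03, and without PD15 replicate 1 the PD15 mean was 0.470 FPKM and the change from PD14 was -0.32.

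Aqp5, the water channel of secretory glands, lies 6.234 kb downstream of Aqp2 on the same strand, on chr15:99590782-99594829. It was at 1.76, 1.09 and 1.15 FPKM in the PD14 libraries, at 1.32, 1.06 and 1.34 FPKM at PD15, and at 1.23, 0.978 and 2.83 FPKM at PD16. Apart from PD16 replicate 3, all libraries lay between 0.978 and 1.76 FPKM. The day means were 1.33 ± 0.372, 1.24 ± 0.156 and 1.68 ± 1.00 FPKM. The change from PD14 to PD16 was 0.15 in log2(FPKM + 1) (95% interval -0.36 to 0.66, adjusted p = 0.738 by limma) and turned to -0.14 without PD16 replicate 3. The change from PD14 to PD15 was -0.05 (adjusted p = 0.940) and that from PD15 to PD16 was 0.20 (adjusted p = 0.758). The exact permutation test gave p = 0.886.

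Aqp8, a channel for water that also passes ammonia, lies on chr7:123462291-123468004 (+ strand). It was at 0.852, 0.105 and 0 FPKM in the PD14 libraries, at 0.273, 0.0797 and 0.154 FPKM at PD15, and at 0.664, 0.111 and 2.01 FPKM at PD16. Behind these values stood 33, 4 and 0 fragments at PD14, 11, 3 and 7 at PD15, and 25, 4 and 81 at PD16. The ranges of the days overlapped, and the value in PD16 replicate 3 was above 1 FPKM while all others were below. The exact permutation test of the 3 days gave p = 0.425 (0.104 to 0.854 with 1 library left out).

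The library that was highest for Aqp2, Aqp5 and Aqp8 was the same, PD16 replicate 3, which was also the highest library for 12.8% of the genes tested. Markers were searched for in this library after its values were seen. Prap1, Ltf and Sprr2f, secreted or cornified-envelope genes of the uterine lining, were uneven between libraries as well. Prap1 was at 17.3, 0.134 and 0 FPKM in the PD14 libraries, at 2.41, 0 and 0.0561 FPKM at PD15, and at 0, 0.142 and 28.0 FPKM at PD16. Its 3 highest libraries were PD16 replicate 3, PD14 replicate 1 and PD15 replicate 1. These were the highest libraries of their days for Aqp2 and Aqp8 as well. Ltf and Sprr2f were highest in PD14 replicate 1, at 7.76 and 12.3 FPKM, and at 0.672 and 0.258 FPKM in PD16 replicate 3. The summed FPKM of the 5 uterine genes looked at ranged from 0.0207 to 37.4 at PD14, from 0 to 2.78 at PD15 and from 0 to 29.0 at PD16. Hoxa11, which marks uterine stroma, was at 0 in all libraries, and Foxa2 of the uterine glands did not exceed 0.0207 FPKM. The sum of 12 markers of the ovarian surface epithelium and oviduct did not stand out in PD16 replicate 3, at 52.4 FPKM in a PD16 range of 48.6 to 53.6, after 55.2 to 63.3 at PD15 and 62.7 to 71.2 at PD14. From PD14 to PD16, 3 of the 7 genes tested of this list fell and 0 rose, beside 4.25% of all genes called. They were the keratins Krt8 (-0.48, adjusted p = 0.0222 by limma), Krt18 (-0.45, adjusted p = 0.0121) and Krt19 (-0.42, adjusted p = 0.0335). Of 19 alternatives, these calls were lost in 4, 1 and 7. Uncalled changes of the other sign were those of Upk1b (0.09), Upk3b (0.05) and Msln (0.11). The part of such cells in the values of Aqp2, Aqp5 and Aqp8 was not tested. For the kidney, where Aqp2 is abundant, the 6 tubule markers Umod, Slc12a1, Slc12a3, Avpr2, Scnn1g and Slc34a1, also chosen after the values were seen, were all at or near 0, with sums of 0.158 to 0.206, 0.0979 to 0.230 and 0.154 to 0.173 FPKM on the 3 days.

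Aqp4, the channel of brain astrocytes, had the lowest mean over all 9 libraries. It was at 0.0401, 0.0326 and 0.0869 FPKM in the PD14 libraries, at 0.0155, 0.0165 and 0.0411 FPKM at PD15, and at 0.0496, 0.0260 and 0.00774 FPKM at PD16. The ranges overlapped (exact permutation test of the 3 days, p = 0.304).

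**Figure D3:**
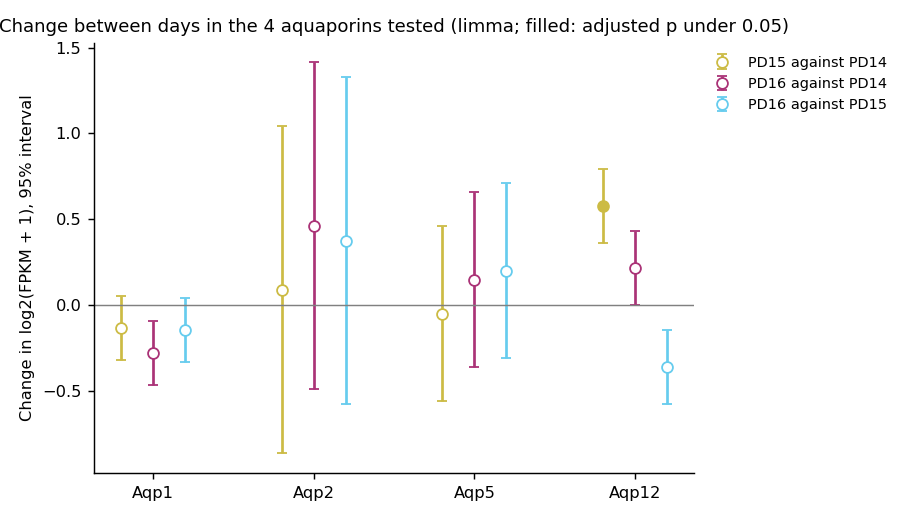
Change in log2(FPKM + 1) between days, with 95% intervals from limma, for the 4 aquaporins that entered the test, in 3 comparisons each. The filled point, Aqp12 from PD14 to PD15 (0.58), is the call at an adjusted p under 0.05, and the intervals of Aqp2 are the widest.

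Among the aquaglyceroporins, Aqp9, the glycerol and small-solute channel of the liver, had the most RNA. It lies on chr9:71110659-71168682 (- strand). It was at 0.374, 0.370 and 0.427 FPKM in the PD14 libraries, at 0.578, 0.609 and 0.361 FPKM at PD15, and at 0.618, 0.457 and 0.550 FPKM at PD16. All PD16 libraries were above all PD14 libraries, and the PD16 mean was 1.39 times that at PD14. PD15 replicate 3 lay below both groups. The fragments behind these values numbered 38, 37 and 36 at PD14, 61, 60 and 43 at PD15, and 61, 43 and 58 at PD16. The exact permutation test of the 3 days gave p = 0.221, and p = 0.0250 without PD15 replicate 3. Genes annotated over Aqp9, Gm47268 and Gm32511, were at 0 in all libraries.

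Aqp7, the glycerol channel of fat cells, lies on chr4:41033074-41048139 (- strand), 44.582 kb from Aqp3 on the same strand. It was at 0, 0.102 and 0.0347 FPKM in the PD14 libraries, at 0.111, 0.0446 and 0.0246 FPKM at PD15, and at 0.0742, 0.0935 and 0.0695 FPKM at PD16 (exact permutation p = 0.575). The sum of 7 fat cell markers was 6.86 to 8.18 FPKM at PD14, 4.70 to 5.23 FPKM at PD15 and 4.30 to 6.15 FPKM at PD16. Most of it was Plin1, which coats lipid droplets and was lower than at PD14 both at PD15 (-0.60, adjusted p = 0.0377 by limma) and at PD16 (-0.50, adjusted p = 0.0294), while Adipoq did not exceed 0.122 FPKM. Of 19 alternatives, the calls of Plin1 were lost in 9 and 7.

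Aqp3, the water and glycerol channel of skin and of the collecting duct's basal side, lies on chr4:41092722-41098183 (- strand). It was at 0.112, 0.0679 and 0 FPKM in the PD14 libraries, at 0.0215, 0 and 0.0761 FPKM at PD15, and at 0, 0.0241 and 0.0430 FPKM at PD16. A difference between days was not detectable at this depth for Aqp3 or Aqp7 (exact permutation p = 0.604 for Aqp3).

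Of the distant members, Aqp11, a channel of the endoplasmic reticulum, was not separated between the days. It lies on chr7:97724006-97738289 (- strand). It was at 0.351, 0.299 and 0.354 FPKM in the PD14 libraries, at 0.263, 0.321 and 0.336 FPKM at PD15, and at 0.236, 0.248 and 0.338 FPKM at PD16. Although its FPKM was low, its long transcript gave 53 to 91 fragments per library. The means were 0.335, 0.307 and 0.274 FPKM, the ranges of the days overlapped, and the exact permutation p was 0.296 (0.0643 to 0.589 with 1 library left out).

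Aqp12 lies on chr1:93006334-93012269 (+ strand), and no other annotated gene overlaps it. It was at 1.65, 1.29 and 1.44 FPKM in the PD14 libraries, at 2.89, 2.43 and 2.69 FPKM at PD15, and at 2.04, 1.90 and 1.63 FPKM at PD16. The PD15 libraries were above all libraries of the other days, and PD16 replicate 3 lay within the range of PD14. The fragments behind these values were 44, 34 and 32 at PD14, 80, 63 and 84 at PD15, and 53, 47 and 45 at PD16. Summed by day, they were 110 (exact Poisson 95% interval 90.4 to 133), 227 (198 to 259) and 145 (122 to 171). These intervals cover counting error only and leave out the spread between libraries. The sums are not corrected for depth, which was 69.0 M fragments at PD14, 77.9 M at PD15 and 71.9 M at PD16.

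The PD15 mean of Aqp12 was 1.83 times that at PD14. The change in log2(FPKM + 1) was 0.58 (SE 0.095, 95% interval 0.36 to 0.79, adjusted p = 0.0377 by limma), higher in 3 of 3 libraries. This scale understates the fold of low genes. The PD16 mean was 0.696 times that at PD15, a change of -0.36 (95% interval -0.58 to -0.15, unadjusted p = 0.00397, adjusted p = 0.127), and 1.27 times that at PD14, a change of 0.21 (adjusted p = 0.219). The F test among the days gave an adjusted p of 0.0345, and the exact permutation test gave p = 0.00714, where the smallest p that 280 groupings allow is 0.00357. The call at PD15 was lost in limma when any 1 library other than PD16 replicate 3 was left out, with adjusted p from 0.0522 to 0.141 against 0.0448 without that library, while the change stayed between 0.53 and 0.63, and the call of the F test was lost in the same 8 fits, with adjusted p from 0.0522 to 0.0926. When every gene above 0 in any library was tested, both calls were lost, at adjusted p of 0.114 and 0.101. The call at PD15 was also lost, at 0.0725, when only the libraries of PD14 and PD15 entered. With the replicate number as a block, both calls were lost, at adjusted p of 0.0687 and 0.0611.

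The summed level of 9 oocyte markers, none of them at 0, was also highest at PD15. It was 1034 to 1287 FPKM at PD14, 1307 to 1389 FPKM at PD15 and 977 to 1029 FPKM at PD16. The markers did not all follow the sum. Bmp15, a growth factor of the oocyte, was higher at PD16 than at PD14 (0.39, adjusted p = 0.0331 by limma), Zp2 of the egg coat fell from PD15 to PD16 (-0.61, adjusted p = 0.0427), and the transcription factors Figla and Nobox had their highest mean at PD14, at 19.8 and 52.2 FPKM. Of 19 alternatives, the call of Bmp15 was lost in 8 and that of Zp2 in 9. Per 1000 FPKM of the summed markers, Aqp12 stood at 1.35, 1.25 and 1.12 at PD14, at 2.13, 1.86 and 1.93 at PD15, and at 2.09, 1.92 and 1.58 at PD16. On this ratio, all libraries of PD15 and PD16 were above all those of PD14, and those of PD15 and PD16 overlapped. The summed markers that divide it were lowest at PD16. In FPKM, the Aqp12 libraries of PD14 and PD16 overlapped, and the change between these days was not called (adjusted p = 0.219 by limma). Ratios to single markers were not computed. The cell type in which Aqp12 was transcribed was not tested. Of 6 pancreatic acinar markers, chosen after the values were seen, Prss2 was at 0 in all libraries, Cel did not exceed 0.0561 FPKM and Pnlip 0.562 FPKM, while Cpa1 was at 18.4 to 31.9 FPKM, Cela1 at 1.84 to 3.58 FPKM and Ctrb1 at 0.813 to 1.89 FPKM.

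The 250 bases before the start site are shown for Aqp12, the member that was called, and for Aqp2, the tested member with the widest spread between libraries. They are from RefSeq (GRCm38.p6), both on the + strand, 5′ to 3′, at chr1:93006084-93006333 for Aqp12 and chr15:99578806-99579055 for Aqp2. Capitals mark the letters of the motifs found on either strand, out of 6 that were searched for.
Aqp12: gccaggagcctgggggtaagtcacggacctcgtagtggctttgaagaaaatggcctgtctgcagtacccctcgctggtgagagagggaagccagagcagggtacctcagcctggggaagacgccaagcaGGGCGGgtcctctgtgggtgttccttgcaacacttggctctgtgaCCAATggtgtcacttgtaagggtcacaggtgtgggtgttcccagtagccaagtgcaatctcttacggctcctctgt
Aqp2: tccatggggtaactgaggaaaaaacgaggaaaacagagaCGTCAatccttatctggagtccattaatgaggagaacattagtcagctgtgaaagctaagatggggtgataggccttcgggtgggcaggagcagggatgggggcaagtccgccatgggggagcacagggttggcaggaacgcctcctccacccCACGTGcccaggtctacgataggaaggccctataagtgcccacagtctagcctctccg
In the Aqp12 window, GGGCGG begins 121 bases and CCAAT 76 bases before the start site. In the Aqp2 window, TGACG, read on the other strand, begins 211 bases and CACGTG 58 bases before it. The search covered RefSeq windows of 300 bases, which run on 50 bases past the start site. Of 32851 such windows, GGGCGG is present in 35.7%, CCAAT in 37.4%, TGACG in 20.8%, CACGTG in 7.15%, TATAAA in 13.6% and the steroidogenic factor motif CAAGGTCA in 1.56%. No motif overlapped another in the windows of Aqp12 and Aqp2, and in the 50 bases past the start site Aqp12 also holds TGACG, read on the other strand from base 33. Such matches are a description of the letters. Of the 10 members, 9 had a window in this table.

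The summed FPKM of the 10 aquaporins differed between the days by less than the spread within them, at 19.3 ± 0.969, 19.3 ± 1.34 and 19.0 ± 2.80 FPKM. This sum was mostly Aqp1, whose share was 78.0% in PD14 replicate 2 and 50.4% in PD16 replicate 3, the extremes of the 9 libraries. Without Aqp1, the sum was 4.80 ± 1.09 FPKM at PD14, 6.13 ± 1.59 FPKM at PD15 and 7.16 ± 3.34 FPKM at PD16. The highest single library was PD16 replicate 3, at 11 FPKM, whereas the other libraries of that day were at 5.51 and 4.96 FPKM. The sums were given without a test.

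**Figure D4:**
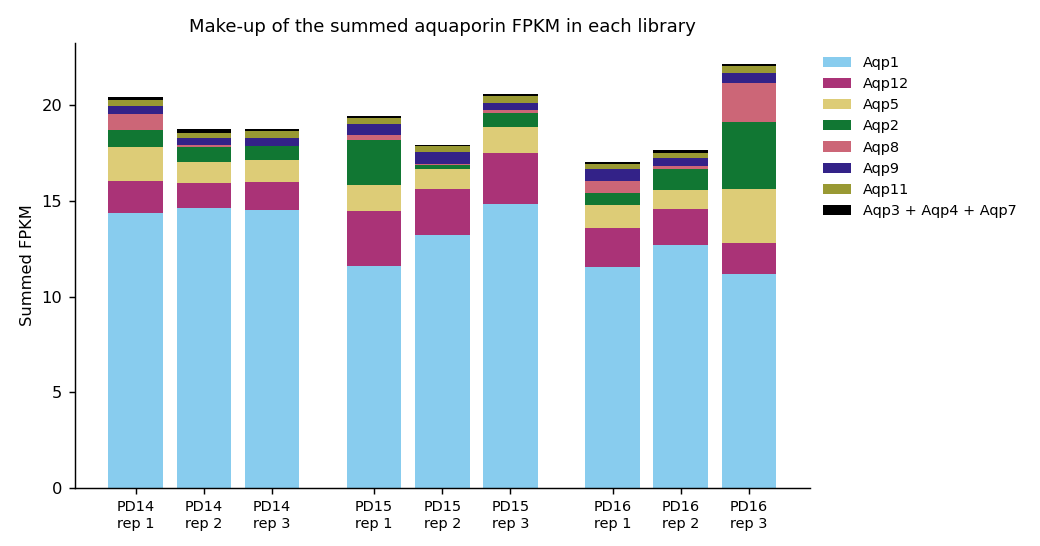
Summed FPKM of the aquaporins in each library, stacked by gene, with Aqp3, Aqp4 and Aqp7 together in black. Aqp1 fills most of each bar, and in PD16 replicate 3 Aqp2, Aqp5 and Aqp8 are wider than in the other PD16 libraries.

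The genes most like each tested aquaporin over the 9 libraries, by Pearson's r of log2(FPKM + 1), are given as a description, since libraries shared days and their depth differed. They are the 3 highest values of r out of all 15495 genes tested. Picking the highest of so many over 9 libraries yields high values by itself, and how high was not tested. For Aqp12 they were the noncoding Gm45810 (r = 0.949), a transcript without a gene name (0.943) and Ermp1, a peptidase of the endoplasmic reticulum (0.941). For Aqp1 they were the pseudogene Gm14794 (0.970), an unnamed transcript (0.969) and 9130023H24Rik (0.943). For Aqp2 they were the pseudogene Gm16378 (0.919), an unnamed transcript (0.909) and Ren1, which encodes renin (0.909). For Aqp5 they were the drug efflux pump Abcb1b (0.961), Cyp20a1 (0.914) and an unnamed transcript (0.912). Among the aquaporins themselves, Aqp2 and Aqp5 had an r of 0.72, and Aqp2 and Aqp1 one of -0.59. Aqp2 and Aqp5 shared PD16 replicate 3 as their highest library, at 3.53 and 2.83 FPKM, and their r without it was not computed.

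Genes that set the osmotic gradient, seal the epithelium or act on the channels were described from 5 lists of 83 genes, of which 59 were tested. Between PD14 and PD16, 7 of these 59 (11.9%) were called by limma at an adjusted p under 0.05, beside 4.25% of all genes, and 18 (30.5%) had an unadjusted p under 0.05, beside 22.8% of all genes. From PD14 to PD15 and from PD15 to PD16, limma called 0 of 59 (12 and 9 at an unadjusted p under 0.05, or 20.3% and 15.3%, where 14.7% and 14.1% of all genes were). Of the 9 sodium pump genes tested of 14, 0 rose and 1 fell from PD14 to PD16, Fxyd6, a small regulator of the pump (-0.56, adjusted p = 0.0241). The list had a median change of 0.04, against 0.01 over all genes. Of 16 tight junction genes tested of 23, 1 rose and 2 fell. The one that rose was Jam2, a junctional adhesion molecule (0.77, adjusted p = 0.00782), and those that fell were Cldn11, a claudin (-0.65, adjusted p = 0.0316), and Cgn, the junction plaque protein cingulin (-0.42, adjusted p = 0.0236), with a list median of -0.11.

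Of 10 ion exchangers and channels tested of 17, 0 rose and 1 fell, the potassium-chloride cotransporter Slc12a7 (-0.43, adjusted p = 0.0106 by limma), with a list median of 0.02. Of 14 genes of vasopressin and cyclic AMP signalling to Aqp2 tested of 18, 1 rose and 0 fell. It was Adcy9, an adenylyl cyclase (0.44, adjusted p = 0.0129), and the list median was 0.01. Avpr2, the vasopressin receptor that acts on Aqp2 in the kidney, did not exceed 0.0681 FPKM in any library. Of 10 glycerol handling genes tested of 11, 1 rose and 0 fell, Mgll, which releases glycerol from monoacylglycerol (0.24, adjusted p = 0.0411), with a list median of 0.02. Of these 7 calls, those of Jam2 and Slc12a7 held in all 19 alternatives run, with adjusted p up to 0.0358 and 0.0408. That of Adcy9 was lost in 2 of them, that of Cgn in 5, that of Fxyd6 in 7, that of Cldn11 in 8 and that of Mgll in 11. The count of 7 became 3 without PD14 replicate 1, 2 without PD14 replicate 3, 2 without PD16 replicate 1 and 3 without PD16 replicate 2. It became 3 when every gene above 0 was tested and 4 with the replicate number as a block.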

How the data were processed

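RNA of 9 ovarian libraries, 3 each at PD14, PD15 and PD16, was sequenced after preparation with a kit that does not mark strand. The submitters' processing notes name HISAT2 2.0.5 and mm10. The authors deposited FPKM for 52025 genes in 1 table per library, and these values were used without rescaling. Of the gene identifiers, 96.8% were in GENCODE M21 (GRCm38), which gave coordinates, exon lengths and coding sequence. Depth came from the step between low FPKM values, of which 94.9% to 95.5% were whole multiples (tolerance 0.02 fragments). Fragments were then derived for each aquaporin. They were whole within 0.15 for Aqp3, Aqp7, Aqp8, Aqp9, Aqp11 and Aqp12, nearly so for Aqp2 (largest distance 0.29), and are not given for Aqp1, Aqp4 and Aqp5, which were not whole with M21 lengths.

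Values were analysed as log2(FPKM + 1) with limma 3.58.1 (R 4.3.3, intensity trend) over all 9 libraries and 15495 genes with a mean above 1 FPKM on at least 1 day, with Benjamini-Hochberg adjustment of the p-values over all of them. Each of the 10 aquaporins also had an exact permutation test of the F ratio over the 3 days (one-sided, unadjusted p, 10 tests). With 3 against 3 libraries, such a test cannot go below 0.1, so comparisons of 2 days rest on limma. The p-values measure the spread between these libraries only, described by the study as independent ovaries, with no statement found of whether they came from separate mice. The method was tested on simulated data. Tables were handled in Python 3.11.15 with pandas 2.3.3, exact tests in NumPy 2.4.6, intervals in SciPy 1.17.1, and plots in Matplotlib 3.10.9.

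The members and lists were chosen with earlier results of these data known. All members are named. A marker of the red blood cell list is not reported here. Of the other lists the report draws on, at most the 3 called genes with the largest change are named in each comparison, and for each aquaporin with a mean above 1 FPKM the 3 most similar genes. Gdf9, Cyp17a1, Cdh5, Foxl2, Slc4a1, Adipoq, Figla, Nobox, Avpr2, Upk1b, Upk3b and Msln fall outside this rule and were picked with their values known. The same holds for the markers said to be chosen after the values were seen. As alternatives, the pseudocount, the filter, the scaling and the variance model were changed, the replicate number was added as a block, and libraries were left out 1 at a time.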

Additional observations from a re-analysis of the deposited data

How the results depend on the processing

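The FPKM levels and sums stayed within 1 SD under median-ratio scaling. The median of a day, or its mean without 1 of 3 libraries, cannot differ from its mean by 1 SD, so these settings say nothing about stability, and Aqp2 at PD15 went from 1.11 to 0.470 FPKM without replicate 1 and Aqp8 at PD16 from 0.930 to 0.388 FPKM without replicate 3. The number of aquaporins called from PD14 to PD15 went from 1 to 0 when every gene above 0 was tested, with the replicate block and with only the libraries of those days, and the number called among the 3 days went from 1 to 0 with every gene and with the block. With each library left out in turn, both ranged from 0 to 1. The adjusted p of Aqp12 from PD14 to PD15 was 0.114 with every gene, 0.0687 with the replicate block and 0.0725 with only the libraries of those days, and among the 3 days it was 0.101 with every gene and 0.0611 with the block. With each library left out, the change of Aqp12 from PD14 to PD15 ranged from 0.53 to 0.63. Over all genes, the call counts of 105 (PD14 to PD15), 659 (PD14 to PD16), 113 (PD15 to PD16) and 469 (3 days) fell to 29, 172, 24 and 95 when more genes were tested and to 24, 227, 56 and 127 with the replicate block. With only the libraries of the days compared they were 46 from PD14 to PD15 and 323 from PD14 to PD16. With each library left out, they ranged from 3 to 92, from 92 to 660, from 14 to 125 and from 100 to 354. The cause was not tested.

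For the list genes, the same alternatives were added after seeing the data. The 7 pathway genes called from PD14 to PD16 became 3 with every gene above 0, 4 with the replicate block and 2 to 7 with each library left out, and the 0 called from PD15 to PD16 became 1 with quantile normalization and 0 to 1 with each library left out. The changes of Aqp12 from PD14 to PD15 and of the called list genes named kept their direction in all alternatives run. Uncalled changes that turned were that of Aqp2 from PD14 to PD15, which was -0.10 with a pseudocount of 0.1 and ranged from -0.32 to 0.44 with each library left out, that of Aqp2 from PD15 to PD16 (-0.060 to 0.78), and those of Aqp5 from PD14 to PD15 (-0.12 to 0.076), from PD14 to PD16 (-0.14 to 0.34) and from PD15 to PD16 (-0.088 to 0.39). The exact p ranged from 0.0357 to 0.15 for Aqp1, from 0.0250 to 0.346 for Aqp9 and from 0.00357 to 0.0143 for Aqp12 with each library left out, these settings being chosen after seeing the data. It fell under 0.05 for Aqp1 without PD15 replicate 1 (0.0357) and without PD15 replicate 3 (0.0393), and for Aqp9 without PD15 replicate 3.

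Libraries with the same replicate number had correlations of their deviations from the day means between -0.21 and 0.16, against -0.20 to 0.21 for other numbers, so the number was not taken as a pairing. Aqp3 and Aqp7 rested on 0 to 8 fragments per library.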
